A study of Homo sapiens with 16 samples.

Results

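The genes described here set, remove or read the methyl mark on DNA, together with 1 repair gene whose own methylation is followed in glioblastoma. They are the DNA methyltransferases DNMT1, DNMT3A and DNMT3B, the dioxygenases TET1, TET2 and TET3, the methyl-DNA reader MBD2 and the repair protein MGMT. They were taken from the count table by symbol, 8 of its 58243 genes, and each symbol had 1 entry. The set was chosen by the measured levels of these same libraries, with the levels of DNMT3B across the 4 groups in view, so the levels and fold changes of the 8 genes are given as a description without a test. Of the 8 genes, 7 passed the filter on low counts, and MGMT did not.

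The libraries were made from poly(A) RNA of U-251 MG cells, a long-established line grown from a human glioblastoma. One set of cells received simvastatin at 0.06 µM together with irinotecan at 0.6 µM (the combination), another irinotecan at 0.6 µM, another simvastatin at 0.06 µM, and the last the solvent DMSO alone. Drugs were added 24 h after seeding and left for 48 h, and each group had 4 libraries. The library of each group whose title has no replicate number is called replicate 4 here. Simvastatin inhibits HMG-CoA reductase, the rate-limiting enzyme of the mevalonate pathway, and irinotecan is converted in cells to an active poison of topoisomerase I, which leaves breaks in replicating DNA. All groups are 1 cell line at 1 dose of each drug and 1 time, and nothing in the labels ties the 4 libraries of 1 group to different cultures, so the standard errors and p-values below measure the spread between these libraries, which may be technical.

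Depth was similar in the groups: the libraries held 24159673 to 27502415 counts with the combination, 24375152 to 32318888 with irinotecan, 24669799 to 29756711 with simvastatin and 24478638 to 31932971 with DMSO. The glial and glioblastoma markers CD44, VIM, NES, SOX2, SOX9, GFAP and FABP7 were all abundant. S100B was far lower, with 2106 counts over all 16 libraries, and OLIG2 was close to absent, with 11. The summed level of the 9 markers lay at 5532 to 5695 counts per 1000000 counts of the library (CPM) with the combination, 5600 to 5751 with irinotecan, 7260 to 7385 with simvastatin and 7506 to 7781 with DMSO. CD44 was the largest part of this sum, at 2292 to 3387 CPM. CD3E, a T cell marker, was at 0, and the summed level of the 5 leukocyte and microglia markers never passed 0.946 CPM.

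Methylation of the cytosine in CpG is copied after replication by DNMT1, which follows the replication fork and is brought to hemimethylated sites by UHRF1. DNMT3A and DNMT3B place new methyl groups, DNMT3B mainly in early development, over gene bodies and at germline genes and pericentromeric repeats, and it is raised in many tumours. The TET enzymes oxidise 5-methylcytosine, which base excision repair or replication then removes, and MBD2 binds methylated CpG and brings the NuRD deacetylase and remodelling complex. MGMT takes alkyl groups off the O6 position of guanine, and methylation of its promoter in glioblastoma goes with silence of the gene and with a better response to temozolomide.

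The RefSeq start regions of DNMT3B and MGMT are shown because DNMT3B is the one of the 8 genes that differed most between the drugs and MGMT the one with no counts, and because these stretches lie far apart in CpG content. Each line gives 250 bases upstream of the RefSeq transcription start on GRCh38.p14, plus strand, 5′ to 3′, with every CpG in capitals. The DNMT3B stretch is chr20:32779602-32779851 and lies 17.5 kb inside the gene as the GENCODE 29 annotation draws it (chromosome 20, 32762385 to 32809356, plus strand), so it is not the region before that outermost start. Which start of DNMT3B these cells use was not determined, so its CpG count below may not be that of the promoter in use. The MGMT stretch is chr10:129466991-129467240, and its RefSeq start lies 0.057 kb from the GENCODE start of MGMT (chromosome 10, 129467184 to 129768007, plus strand).
DNMT3B: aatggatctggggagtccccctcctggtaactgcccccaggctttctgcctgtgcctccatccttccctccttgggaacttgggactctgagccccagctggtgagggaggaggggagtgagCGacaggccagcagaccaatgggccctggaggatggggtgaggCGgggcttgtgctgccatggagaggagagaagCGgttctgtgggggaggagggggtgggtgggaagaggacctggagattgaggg
MGMT: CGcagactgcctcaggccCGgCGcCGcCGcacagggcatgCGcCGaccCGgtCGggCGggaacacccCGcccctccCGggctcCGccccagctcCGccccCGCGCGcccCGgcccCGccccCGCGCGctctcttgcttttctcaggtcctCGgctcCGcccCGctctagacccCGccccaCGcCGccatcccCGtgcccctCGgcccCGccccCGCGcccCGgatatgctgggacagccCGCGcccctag
The DNMT3B stretch holds 3 CpGs and the MGMT stretch 36. Over the full windows of 300 bases, which add 50 bases after the start, DNMT3B had 3 CpGs, a number reached by 81.8% of the 35116 human RefSeq windows, and MGMT had 45, reached by 3.48%. The 17 windows of the 8 genes held 3 to 46 CpGs against a median of 14 over all windows, and 12 of the 17 lay above it. DNMT3A has several of these windows, all above the median and some overlapping. Counts of windows, here and below, are therefore not counts of separate regions. The SP1 word GGGCGG, read on both strands, stood 8 times in the MGMT window and in 10 of the 17 windows, beside 45.0% of all windows. The E2F words TTTGGCGC, TTTCCCGC, TTTCGCGC and TTTGCCGC, read on both strands, were found in 1 of the 17 windows, that of DNMT1, beside 3.31% of all windows. No methylation was measured in these libraries, so the sequences describe the regions only.

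DNMT1, which copies methylation at replication, was the most abundant of the 8 genes per kb of exon. Averaged over the 16 libraries and divided by the exon length of each gene, DNMT1 had 32.1 CPM per kb, MBD2 8.81, DNMT3B 7.72, DNMT3A 4.28, TET3 4.10, TET2 2.82 and TET1 1.10, and MGMT was at 0. That length joins all annotated exons of a gene and can exceed the transcript in use, so the order below DNMT1 depends on it. Without it, DNMT3A stood above DNMT3B with DMSO, at 50.8 against 29.2 CPM. The places of MBD2 and DNMT3B depended on the drug. DNMT3B stood above MBD2 with irinotecan, at 11.0 against 8.38 CPM per kb, and their ranges did not overlap. The pair overlapped with the combination, at 8.67 CPM per kb for DNMT3B and 8.85 for MBD2. With DMSO the order was reversed, at 6.31 CPM per kb for DNMT3B and 9.19 for MBD2, again without overlap. DNMT3A and TET3 overlapped in all 4 groups, while TET2 lay below both and TET1 below TET2 in every group without overlap.

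**Figure D1:**
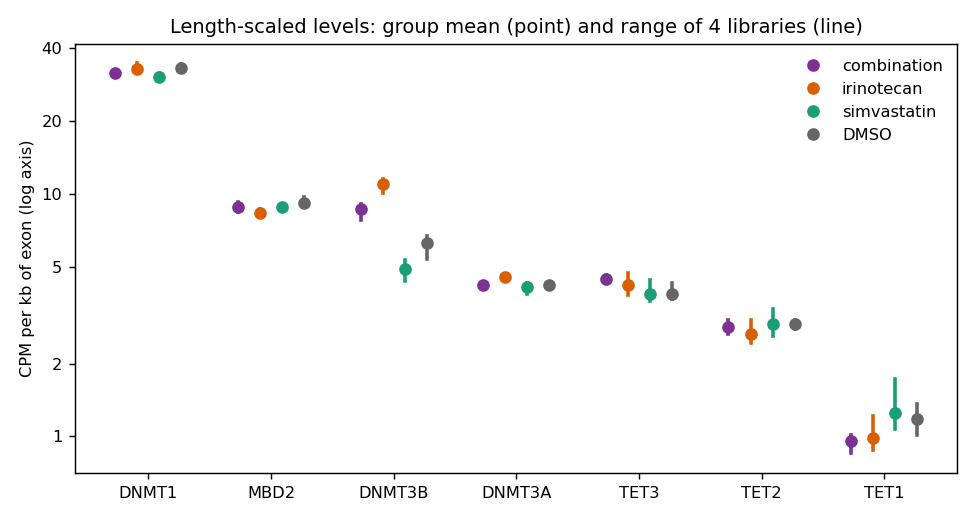
Mean level of 7 genes in CPM per kb of exon on a log axis, with a line for the range of 4 libraries in each group; MGMT, at 0, cannot be drawn on this axis. DNMT3B is the gene whose groups lie farthest apart, at 8.67 with the combination, 11.0 with irinotecan, 4.90 with simvastatin and 6.31 with DMSO.

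DNMT3B, one of the pair of de novo methyltransferases, was higher with irinotecan and lower with simvastatin, and the combination lay between irinotecan and DMSO. Replicates 1 to 4 had 42.2, 41.5, 36.2 and 40.7 CPM with the combination and 51.8, 46.8, 51.5 and 53.7 CPM with irinotecan. They had 23.7, 22.1, 24.7 and 20.2 CPM with simvastatin and 31.0, 31.0, 25.1 and 29.8 CPM with DMSO. No library of any group reached into another group, although the highest simvastatin library and the lowest DMSO library were 24.7 and 25.1 CPM. Of the 7 genes, DNMT3B was the 1 gene whose 4 groups were all clear of each other, and 0.667% of the 16647 genes tested had that property. As these are levels of RNA from whole cultures, fewer cells with DNMT3B and less DNMT3B RNA per cell cannot be told apart.

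The fold changes of DNMT3B were close to additive on the log scale. The group means were 40.1 ± 2.7 CPM with the combination, 50.9 ± 2.9 with irinotecan, 22.7 ± 2.0 with simvastatin and 29.2 ± 2.8 with DMSO (SD, n = 4 each). Against DMSO, the log2 fold change was 0.80 ± 0.07 (SE) with irinotecan, 0.46 ± 0.07 with the combination and -0.36 ± 0.07 with simvastatin. Within irinotecan-treated cells, the combination stood -0.34 ± 0.06 from irinotecan alone, close to the -0.36 of simvastatin alone against DMSO. Within simvastatin-treated cells, the combination stood 0.82 ± 0.07 above simvastatin alone, close to the 0.80 of irinotecan alone. The interaction of the drugs, which is the departure from additivity, was 0.02 ± 0.10. These comparisons share libraries, so they are not independent of each other. Both likenesses restate the interaction, as all come from the same 4 groups, so they lend each other no weight. Of the 16647 genes tested, 0.0120% were called for the interaction, so a lack of clear departure was common to nearly all genes.

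**Figure D2:**
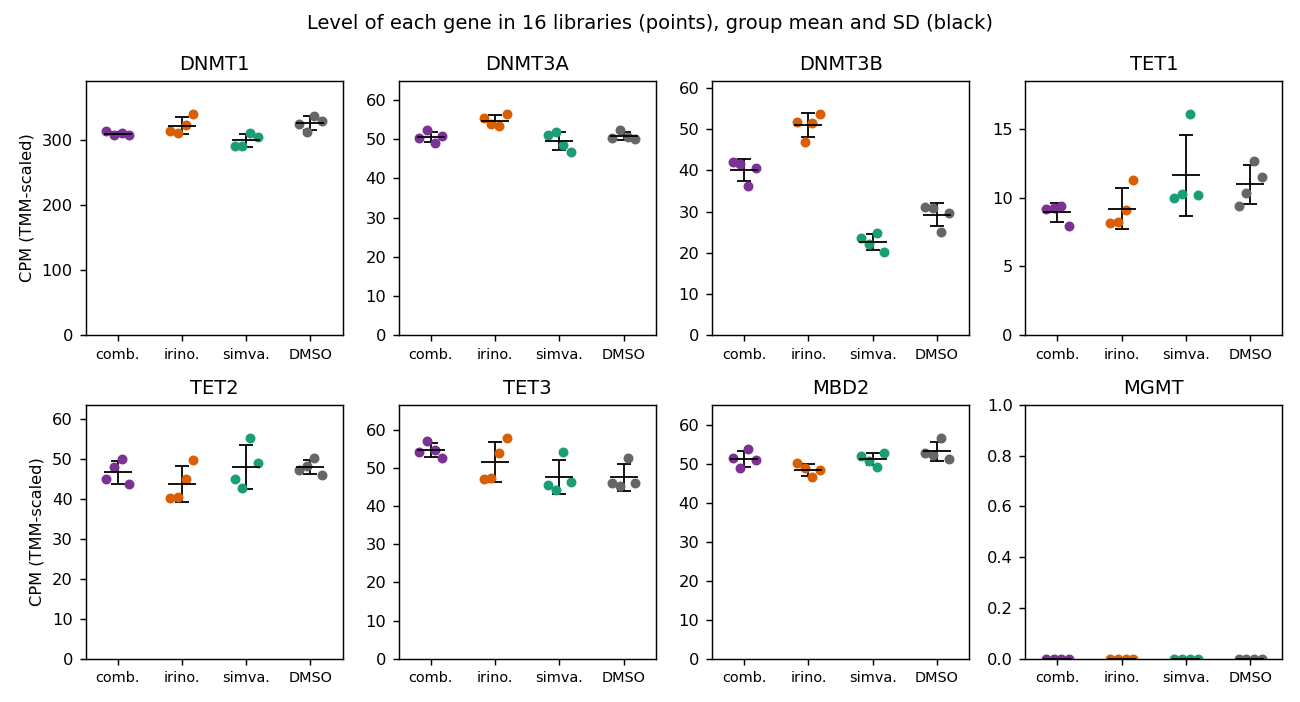
Level of each of the 8 genes in CPM (linear axes from 0, a different scale in each panel) in the 16 libraries; coloured points are libraries, black bars the group mean and SD. DNMT3B lies at 36.2 to 42.2 with the combination, 46.8 to 53.7 with irinotecan, 20.2 to 24.7 with simvastatin and 25.1 to 31.0 with DMSO, while MGMT is at 0 throughout.

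DNMT3A, the other de novo methyltransferase, moved little. It had 50.3, 52.2, 49.0 and 50.8 CPM with the combination, 55.4, 54.0, 53.3 and 56.4 with irinotecan, 51.2, 51.9, 48.6 and 46.8 with simvastatin and 50.2, 52.4, 50.6 and 50.1 with DMSO. The irinotecan libraries were above all others, by a log2 fold change of 0.11 ± 0.04 against DMSO, and the combination stood -0.11 ± 0.04 from irinotecan. The balance of the pair therefore followed DNMT3B. Per kb of exon, DNMT3B over DNMT3A was 2.06 ± 0.11 with the combination, 2.41 ± 0.11 with irinotecan, 1.19 ± 0.10 with simvastatin and 1.49 ± 0.14 with DMSO (SD, n = 4 each). The highest simvastatin ratio, 1.32, lay above the lowest DMSO ratio, 1.29, so those groups overlapped, and the groups were otherwise apart. The size of the ratio rests on the annotated exon lengths, while its order between groups does not.

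DNMT1 was lower with simvastatin by a small margin. It had 313, 308, 311 and 307 CPM with the combination and 314, 312, 324 and 340 CPM with irinotecan. It had 291, 291, 311 and 304 CPM with simvastatin and 324, 313, 337 and 330 CPM with DMSO. Simvastatin lay below DMSO without overlap, with a log2 fold change of -0.12 ± 0.04, while irinotecan and the combination overlapped DMSO, at -0.02 ± 0.04 and -0.07 ± 0.04. The irinotecan value changed sign, to 0.06, with library sizes alone. Within the exon span of DNMT1, 2 exons overlap S1PR2 on the same strand, a gene that never passed 6.33 CPM. The summed level of the 3 methyltransferases, not scaled for length, was 401 ± 4.0 CPM with the combination, 428 ± 16.1 with irinotecan, 372 ± 9.0 with simvastatin and 406 ± 7.3 with DMSO.

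The TET dioxygenases, which start demethylation, showed no common direction with the drugs. TET3, the most abundant of them per kb, had 54.2, 56.9, 54.7 and 52.7 CPM with the combination, 47.0, 47.5, 53.8 and 57.8 with irinotecan, 45.5, 44.3, 54.1 and 46.2 with simvastatin and 46.0, 45.2, 52.7 and 46.0 with DMSO. The combination was above DMSO by 0.20 ± 0.07 on the log2 scale, with its lowest library at 52.71 CPM beside the highest DMSO library at 52.66 CPM. Irinotecan and simvastatin overlapped DMSO, at 0.12 ± 0.07 and 0.00 ± 0.07. TET2, which lacks the DNA-binding CXXC domain of the other TETs in its own protein, had 45.0, 47.8, 49.9 and 43.6 CPM with the combination and 40.2, 40.3, 44.8 and 49.7 with irinotecan. It had 44.9, 42.8, 55.2 and 48.8 CPM with simvastatin and 47.0, 48.1, 50.1 and 45.9 with DMSO, and all of its groups overlapped. TET1, the lowest of the 3 per kb, had 9.20, 9.22, 9.37 and 7.90 CPM with the combination and 8.14, 8.22, 9.10 and 11.3 with irinotecan. It had 9.95, 10.2, 16.1 and 10.2 CPM with simvastatin and 9.40, 10.4, 12.7 and 11.5 with DMSO. The combination lay below DMSO with a log2 fold change of -0.30 ± 0.15 and below simvastatin at -0.39 ± 0.15, without overlap in either, but its highest library, 9.37 CPM, was next to the lowest DMSO library, 9.40 CPM. Simvastatin replicate 3 set the sign of TET1 in that group: simvastatin against DMSO was 0.09 ± 0.14 with it and -0.12 without it. The 3 TET genes, not scaled for length, summed to 110 ± 4.7 CPM with the combination, 104 ± 11.2 with irinotecan, 107 ± 12.6 with simvastatin and 106 ± 6.1 with DMSO.

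Within a group, the TET genes tended to be high or low in the same library. Simvastatin replicate 3 stood above its group mean by 0.50 for TET1, 0.21 for TET2 and 0.19 for TET3 on the log2 scale. Irinotecan replicate 4 stood above its group by 0.31, 0.19 and 0.17, and DMSO replicate 3 by 0.21, 0.07 and 0.15, in the same order of genes. TET2 and TET3 have 16.5 and 12.3 kb of exon and are among the longest genes; TET1 has 9.29 kb. The 1339 tested genes with the longest exon sequence, 10.8 kb or more, had median deviations of 0.09, 0.06 and 0.05 in those 3 libraries, while the 1339 shortest had -0.06, -0.07 and 0.01. For the longest genes, replicate 3 stood above its group mean by 0.04 with the combination and 0.04 with irinotecan. It did so by 0.09 with simvastatin and 0.05 with DMSO. Replicate 1 stood at -0.03, -0.04, -0.04 and -0.03 in the same order. TET2 and TET3 had these same signs in replicates 1 and 3 of every group. The parts of gene length and of the replicate in the spread of the TET genes were not tested.

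**Figure D3:**
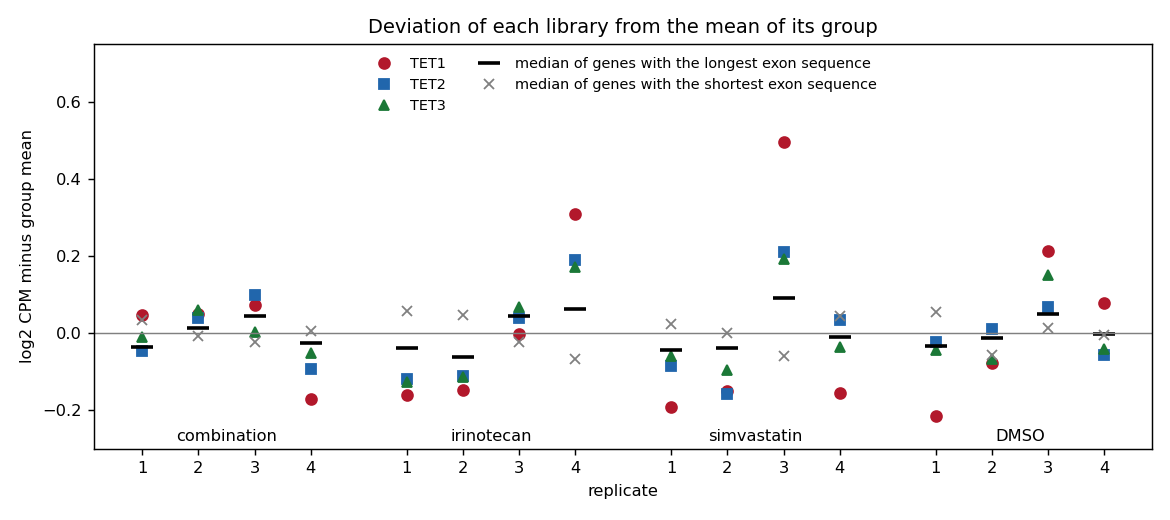
Deviation of TET1, TET2 and TET3 from the mean log2 CPM of their group in each of the 16 libraries. The median deviations of the class of 1339 genes called longest and the class of 1339 called shortest are shown too. Simvastatin replicate 3, irinotecan replicate 4 and DMSO replicate 3 are above 0 for all 3 genes and for the longest genes. Combination replicates 2 and 3 are as well, by less.

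MBD2, the reader that recruits NuRD, was slightly lower with irinotecan alone. It had 51.6, 49.0, 53.9 and 51.2 CPM with the combination and 50.4, 49.1, 46.7 and 48.5 with irinotecan. It had 52.3, 50.9, 49.4 and 52.8 CPM with simvastatin and 53.0, 52.4, 56.8 and 51.3 with DMSO. Irinotecan lay below DMSO without overlap at -0.13 ± 0.05, a value that shrank to -0.06 when library sizes alone were used for scaling. The combination overlapped irinotecan, simvastatin and DMSO, and against DMSO it stood at -0.05 ± 0.05.

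MGMT, which repairs O6-alkylguanine, had 0 counts in all 16 libraries, in the combination, irinotecan, simvastatin and DMSO groups alike. A count of 0 of 431798327 allows a level of up to 0.00696 CPM over all libraries, and of 0.0906 to 0.124 CPM in a single library, from counting error only. The overlapping antisense gene AL157832.2 was also at 0. MGMT shared this with 2263 of the 19788 protein-coding genes, or 11.4%. No direction can be given for it under either drug.

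Across the 5 comparisons, between 2 and 3 of the 7 genes had groups that did not overlap. They were DNMT1 and DNMT3B with simvastatin against DMSO, where 10.0% of all genes tested did not overlap. With irinotecan against DMSO they were DNMT3A, DNMT3B and MBD2, beside 23.4% of all genes. With the combination against DMSO they were DNMT3B, TET1 and TET3, beside 26.2%. They were DNMT3A and DNMT3B with the combination against irinotecan, beside 13.1%, and DNMT3B and TET1 with the combination against simvastatin, beside 25.8%. The median log2 fold change of the 7 genes was between -0.04 and 0.03 in these 5 comparisons, and the median of all genes was between -0.01 and 0.00. Since the genes were chosen with these values in view, nothing is read from the counts.

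**Figure D4:**
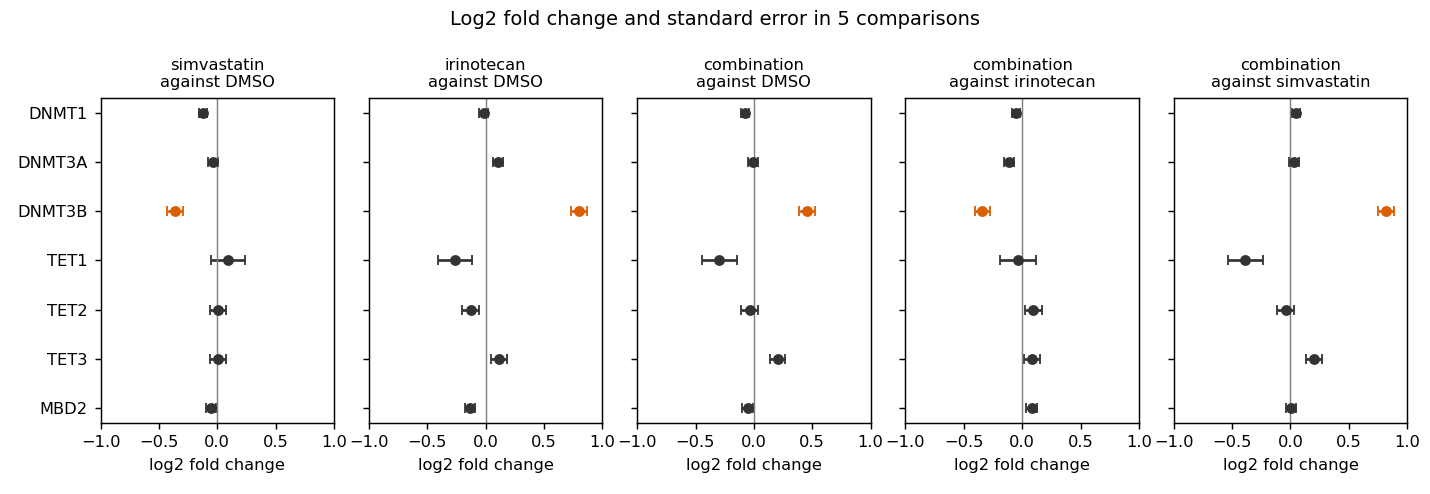
Log2 fold change with its standard error for 7 genes in 5 comparisons, the treated or combined group over the other; DNMT3B is in orange. DNMT3B stands at -0.36, 0.80, 0.46, -0.34 and 0.82 from left to right, and no other gene passes 0.39 in size.

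The 5 genes with the profile nearest to that of DNMT3B, by the root mean square difference of centred log2 CPM over the 16 libraries, were GPR162 at 0.119, USP2 at 0.126, EEPD1 at 0.133, SERPINF1 at 0.138 and ADAMTS14 at 0.138. The median of the 12100 genes searched was 0.470. USP2, a deubiquitinase gene, had 8.47 ± 0.94 CPM with the combination, 11.0 ± 0.66 with irinotecan, 4.93 ± 0.33 with simvastatin and 6.50 ± 0.18 with DMSO. SERPINF1, which encodes the secreted factor PEDF, had 20.1 ± 0.64, 25.4 ± 1.49, 11.2 ± 0.85 and 12.6 ± 0.78 CPM in the same order of groups (SD, n = 4). All 5 had the group order of DNMT3B, with irinotecan highest and simvastatin lowest, which follows from how they were picked. This is a description of likeness in these libraries, which all the genes share.

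Several marker lists also differed between the groups, and of these only the epithelium list had the group order of DNMT3B. The summed level of the 9 glial and glioblastoma markers was lower in both irinotecan-treated groups, as given above. The 4 neuron markers summed to 21.7 to 26.0 CPM with the combination, 19.8 to 22.6 with irinotecan, 19.9 to 22.5 with simvastatin and 16.3 to 18.6 with DMSO, with STMN2 close to 0 at 6 counts in all and SYT1 at 13.3 to 22.4 CPM over the 16 libraries. The 4 endothelium markers summed to 6.07 to 6.58, 5.28 to 6.31, 3.67 to 4.33 and 3.93 to 4.33 CPM in the same order, with PECAM1 at 18 counts in all and KDR at 3.07 to 5.01 CPM. The 4 epithelium markers, nearly all KRT8 and KRT18, summed to 493 to 562 CPM with the combination, 557 to 617 with irinotecan, 363 to 395 with simvastatin and 402 to 457 with DMSO, with EPCAM at 4 and CDH1 at 56 counts in all. KRT8 alone lay at 210 to 395 CPM. The part of these lists in the DNMT3B levels was not tested.

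The other genes of the pathway were tested with edgeR's quasi-likelihood test, adjusted by Benjamini-Hochberg over all 16647 genes, with calls at an adjusted p under 0.05. They were 135 genes in 8 lists by role, of which 105 passed the filter on low counts. With simvastatin against DMSO, 12 of the 105 were called, 1 higher and 11 lower (11.4%), beside 6.00% of all genes (3.89% higher and 2.11% lower). The 12 became 7 without simvastatin replicate 2 or replicate 4. With irinotecan against DMSO, 34 were called, 15 higher and 19 lower (32.4%), beside 24.1% of all genes (12.4% higher and 11.7% lower). With the combination against DMSO, 46 were called, 17 higher and 29 lower (43.8%), beside 28.1% (15.1% higher and 13.0% lower). With the combination against simvastatin, 34 were called, 18 higher and 16 lower (32.4%), beside 25.6% (13.9% higher and 11.7% lower). With the combination against irinotecan, 6 were called, 2 higher and 4 lower (5.71%), beside 5.94% (4.45% higher and 1.50% lower), and this fell to 2 without irinotecan replicate 2 and to 3 without combination replicate 3 or replicate 4. The interaction of the drugs gave 0 of the 105 by edgeR's quasi-likelihood test, with 5 at an unadjusted p under 0.05 and 0 by DESeq2, beside 0.0120% of all genes, which is 2 genes.

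The split into higher and lower depended on the scaling in the irinotecan-treated groups. With library sizes alone, in place of TMM factors, the 37 calls for irinotecan against DMSO were 29 higher and 8 lower, and the 50 for the combination against DMSO were 28 higher and 22 lower. The 34 calls for the combination against simvastatin were then 25 higher and 9 lower, and the 12 for the combination against irinotecan 2 higher and 10 lower. The median log2 fold change of all genes moved by less than 0.1, to 0.07 for irinotecan against DMSO and 0.06 for the combination against DMSO. All genes together showed the same shift, with 51.4% of irinotecan calls higher under TMM and 77.8% with library sizes alone.

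**Figure D5:**
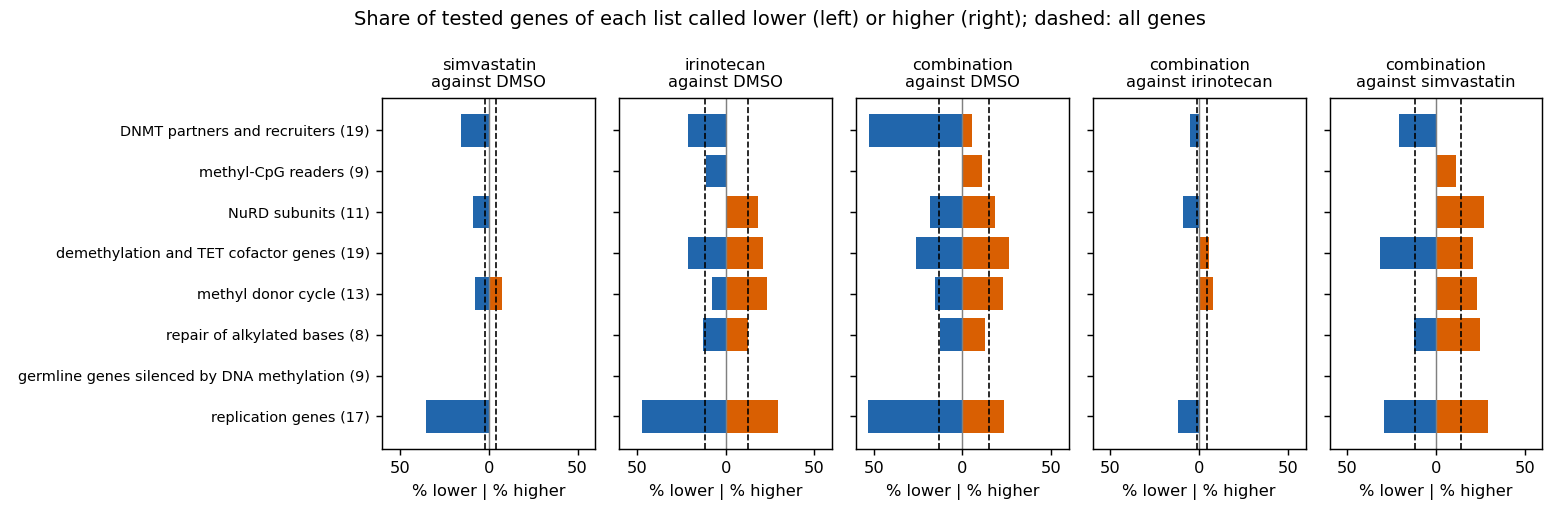
Percentage of the tested genes in each of 8 lists that were called lower (blue, to the left) or higher (orange, to the right) in 5 comparisons at an adjusted p under 0.05; the number tested stands beside the list, and dashed lines mark the percentage of all genes. Among the 19 tested partners of the methyltransferases 10 were lower and 1 higher with the combination against DMSO, and no germline gene was called.

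Most calls among partners and recruiters of the methyltransferases were lower, except for irinotecan when library sizes alone set the scale. Of 19 tested, 3 fell with simvastatin, 4 fell with irinotecan, and 10 fell and 1 rose with the combination, each against DMSO. These were 15.8%, 21.1% and 57.9% of the list, beside 6.00%, 24.1% and 28.1% of all genes. The 3 simvastatin calls became 1 without DMSO replicate 4 or simvastatin replicate 2, and 5 without DMSO replicate 2. With library sizes alone, 3 were higher and 1 lower for irinotecan, and 1 higher and 7 lower for the combination. CDCA7, which is required with the remodeller HELLS for methylation of pericentromeric repeats, had 49.9 to 53.7 CPM with the combination, 60.4 to 64.0 with irinotecan, 67.7 to 71.0 with simvastatin and 75.7 to 79.5 with DMSO. No group of CDCA7 overlapped another. Against DMSO it fell by 0.56 ± 0.04 on the log2 scale with the combination (adjusted p = 4.21e-12), by 0.32 ± 0.04 with irinotecan (adjusted p = 2.40e-07) and by 0.16 ± 0.04 with simvastatin (adjusted p = 0.00773). With the combination against irinotecan it fell by 0.24 ± 0.04 (adjusted p = 0.000194).

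Mutations of DNMT3B, CDCA7, ZBTB24 and HELLS cause the ICF syndrome of immunodeficiency and loss of repeat methylation. The levels of these 4 genes did not share an order of groups. ZBTB24 and HELLS, named after their values were seen, had 18.7 ± 1.0 and 86.4 ± 3.0 CPM with the combination, and 16.6 ± 1.0 and 87.0 ± 3.7 CPM with DMSO (SD, n = 4). ZBTB24 was called higher with the combination, by 0.18 ± 0.07 (adjusted p = 0.0425), but leaving out single libraries lost this call for 6 of the 16, with adjusted p-values of 0.0287 to 0.148, the highest without DMSO replicate 2. HELLS was not called in any comparison with DMSO. UHRF1, which brings DNMT1 to hemimethylated DNA, had 96.3 ± 2.2 CPM with the combination, 103 ± 2.0 with irinotecan, 102 ± 1.5 with simvastatin and 110 ± 4.2 with DMSO. It fell by 0.20 ± 0.04 with the combination (adjusted p = 0.000129), while irinotecan and simvastatin gave adjusted p-values of 0.0561 and 0.0820. EZH2, the histone H3 lysine methyltransferase of Polycomb, fell by 0.22 ± 0.04 with the combination (adjusted p = 0.000154). CDCA7L, a relative of CDCA7, fell by 0.23 ± 0.04 with the combination (adjusted p = 2.19e-05). DNMT3L, the cofactor of the de novo enzymes, did not pass the filter on low counts.

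Few readers of methyl-CpG other than MBD2 were called. Of 9 tested, edgeR's quasi-likelihood test called 1 for irinotecan and 1 for the combination against DMSO. It called 0 for simvastatin, as did DESeq2, and 0 had an unadjusted p under 0.05 there. The share was 11.1% for irinotecan and for the combination, beside 24.1% and 28.1% of all genes. In a list of only 9 genes such a gap carries little weight. Under library sizes alone, 3 were called for irinotecan and 2 for the combination, all higher, and without simvastatin replicate 3 the combination had 2, 1 higher and 1 lower. MBD5 fell by 0.24 ± 0.07 with irinotecan (adjusted p = 0.0129), a call lost with library sizes alone. ZBTB38, a zinc finger reader, rose by 0.29 ± 0.06 with the combination (adjusted p = 0.00116), to 154 ± 3.5 CPM against 126 ± 6.0 CPM with DMSO.

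In the NuRD complex, which MBD2 recruits, 2 of 11 subunits rose with irinotecan, and 2 rose and 2 fell with the combination. Those calls were 18.2% and 36.4% of the list, beside 24.1% and 28.1% of all genes. For simvastatin the share was 9.09%, beside 6.00%. Scaling by library sizes alone gave 4 higher and 0 lower for irinotecan, and 3 higher and 1 lower for the combination. HDAC1, its deacetylase, had 281 ± 5.0 CPM with the combination, 286 ± 9.1 with irinotecan, 240 ± 2.3 with simvastatin and 240 ± 5.5 with DMSO. It rose by 0.25 ± 0.03 with irinotecan (adjusted p = 5.99e-07) and by 0.23 ± 0.03 with the combination (adjusted p = 3.39e-06). GATAD2A, which links the MBD and deacetylase subunits to the remodeller, rose by 0.14 ± 0.04 with irinotecan (adjusted p = 0.00645) and by 0.19 ± 0.04 with the combination (adjusted p = 0.000382). MTA1 fell by 0.20 ± 0.05 with the combination (adjusted p = 0.00355). With simvastatin, the remodeller CHD4 was the 1 subunit called, at -0.15 ± 0.04 (adjusted p = 0.0235), and this call was lost without any of simvastatin replicates 1, 2 and 4 or DMSO replicate 3. The count was 2 without DMSO replicate 4, simvastatin replicate 3, irinotecan replicate 4 or combination replicate 3.

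Among genes that act after the TETs or supply them, 4 of 19 rose and 4 fell with irinotecan, 5 rose and 5 fell with the combination, and 0 were called for simvastatin by edgeR's quasi-likelihood test or by DESeq2. In that comparison 5 had an unadjusted p under 0.05, and 1 was called without simvastatin replicate 3. Called genes were 42.1% of the list with irinotecan and 52.6% with the combination, beside 24.1% and 28.1% of all genes. The 8 irinotecan calls became 5 without irinotecan replicate 3, and the 10 of the combination became 6 without combination replicate 1 or replicate 3. Scaling by library sizes alone gave 5 higher and 2 lower for irinotecan, and 7 higher and 4 lower for the combination. CXXC5, a CpG-binding protein, had 118 ± 5.6 CPM with the combination, 125 ± 1.1 with irinotecan, 153 ± 2.8 with simvastatin and 165 ± 8.5 with DMSO. It fell by 0.40 ± 0.04 with irinotecan (adjusted p = 4.24e-09) and by 0.48 ± 0.04 with the combination (adjusted p = 9.44e-11). IDH2, a mitochondrial isocitrate dehydrogenase that makes 2-oxoglutarate, a substrate of the TETs, rose by 0.35 ± 0.05 with irinotecan (adjusted p = 8.96e-07) and by 0.42 ± 0.05 with the combination (adjusted p = 3.51e-08). IDH1, of the same list and named after its values were seen, fell by 0.12 ± 0.04 with irinotecan (adjusted p = 0.0260). With the combination IDH1 was not called (adjusted p = 0.0539). No 2-oxoglutarate was measured. LIG3, a ligase of base excision repair, fell by 0.36 ± 0.06 with irinotecan (adjusted p = 1.77e-05) and by 0.39 ± 0.06 with the combination (adjusted p = 8.06e-06). NEIL3, a glycosylase, rose by 0.30 ± 0.06 with irinotecan (adjusted p = 0.000171).

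Of 13 tested genes of the methyl donor cycle, which makes S-adenosylmethionine, 1 rose and 1 fell with simvastatin, 3 rose and 1 fell with irinotecan, and 3 rose and 2 fell with the combination. Called genes made up 15.4%, 30.8% and 38.5% in that order, beside 6.00%, 24.1% and 28.1% of all genes. With library sizes alone, 5 were higher and 0 lower for irinotecan and for the combination alike, and 2 higher and 1 lower for simvastatin. The 4 irinotecan calls became 2 without irinotecan replicate 3 or replicate 4, the 5 of the combination became 3 without DMSO replicate 2, and the 2 of simvastatin became 1 without simvastatin replicate 2 or 4 or DMSO replicate 1, 3 or 4. SHMT2, the mitochondrial serine hydroxymethyltransferase that feeds folate with one-carbon units, had 231 ± 7.6 CPM with the combination, 202 ± 9.8 with irinotecan, 248 ± 11.5 with simvastatin and 197 ± 14.1 with DMSO. It rose by 0.33 ± 0.05 with simvastatin (adjusted p = 6.96e-06) and by 0.23 ± 0.05 with the combination (adjusted p = 0.000236). NNMT, which spends methyl groups on nicotinamide, rose by 0.70 ± 0.16 with irinotecan (adjusted p = 0.00138) and by 0.76 ± 0.16 with the combination (adjusted p = 0.000566), at 4.54 ± 0.39 and 4.71 ± 0.67 CPM against 2.78 ± 0.48 CPM with DMSO. MAT2A, which makes S-adenosylmethionine, fell by 0.17 ± 0.05 with the combination (adjusted p = 0.0113), a call lost without DMSO replicate 2 and with library sizes alone.

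Mismatch repair acts on the O6-alkylguanine that MGMT would remove. Of 8 genes for repair of alkylated bases, 1 rose and 1 fell with irinotecan, and likewise with the combination. This was 25% of the list each time, beside 24.1% and 28.1% of all genes. With library sizes alone, 3 were higher and 1 lower for irinotecan, and 5 higher and 1 lower for the combination. For simvastatin 0 were called by edgeR's quasi-likelihood test or by DESeq2, with 2 at an unadjusted p under 0.05, and 2 were called without simvastatin replicate 3. MSH6, a subunit of the mismatch sensor, had 139 ± 2.0 CPM with the combination, 143 ± 4.9 with irinotecan, 161 ± 8.0 with simvastatin and 173 ± 3.5 with DMSO. It fell by 0.28 ± 0.04 with irinotecan (adjusted p = 8.73e-07) and by 0.31 ± 0.04 with the combination (adjusted p = 1.37e-07). PMS2, whose pseudogenes share much of its sequence so that its counts are uncertain, rose by 0.21 ± 0.05 with irinotecan (adjusted p = 0.00214).

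Germline genes, many of which are kept silent by DNA methylation and several by DNMT3B, gave no calls. Of the 35 listed, 13 had 0 counts in every library and 9 passed the filter, and 0 of the 9 were called in any of the 5 comparisons by edgeR's quasi-likelihood test or by DESeq2. At an unadjusted p under 0.05 there was 1 for simvastatin against DMSO and 0 in the other 4 comparisons. Of the 9, PAGE5, DDX4, SYCP3, MAEL and TDRD6 were low, with group means of 0.268 to 1.35 CPM. Their log2 standard errors against DMSO were 0.22 to 0.49, so only large changes of these genes could have been called. DAZL and DPPA3 were among those at 0. MAGEA3, MAGEA6 and MAGEA12 were expressed in all groups, MAGEA3 at 36.4 CPM with the combination, 34.3 with irinotecan, 35.9 with simvastatin and 33.8 with DMSO, and as near-identical copies their counts may be shared between them. MAGEA1 had 8.15 CPM with the combination, 7.38 with irinotecan, 7.41 with simvastatin and 7.76 with DMSO.

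The replication genes, beside which DNMT1 and UHRF1 act, were the list with the largest share of calls in the 3 comparisons with DMSO when all libraries were fitted. Of 17 tested, 6 fell with simvastatin, 5 rose and 8 fell with irinotecan, and 4 rose and 9 fell with the combination. The shares were 35.3%, 76.5% and 76.5%, beside 6.00%, 24.1% and 28.1% of all genes. The 13 irinotecan calls became 7 without irinotecan replicate 4 and 8 without DMSO replicate 1. With library sizes alone, 6 higher and 4 lower were called for irinotecan and 5 higher and 9 lower for the combination. MCM6, a subunit of the replicative helicase, had 121 ± 1.5 CPM with the combination, 131 ± 1.2 with irinotecan, 170 ± 4.7 with simvastatin and 184 ± 2.1 with DMSO. It fell by 0.50 ± 0.03 with irinotecan (adjusted p = 1.12e-12) and by 0.61 ± 0.03 with the combination (adjusted p = 1.13e-14). RRM2, the small subunit of ribonucleotide reductase, rose by 0.32 ± 0.03 with irinotecan (adjusted p = 7.62e-09) and by 0.34 ± 0.03 with the combination (adjusted p = 2.13e-09). In the simvastatin group MCM3 fell by 0.15 ± 0.03 (adjusted p = 0.00253) and MCM2 by 0.15 ± 0.04 (adjusted p = 0.00614). Relative to DMSO, DNMT3B was higher and MCM6 and CDCA7 lower with irinotecan and with the combination, and all 3 were lower with simvastatin.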

How the data were processed

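Poly(A) RNA was sequenced on an Illumina NextSeq instrument, per the labels' protocols. STAR 2.7.1, FastQC and DESeq2 and the build GRCh38 are named in the submitters' processing notes, and how reads were counted, and whether by strand, is not given in the sources used here. The authors deposited a table of raw counts for 58243 genes in 16 libraries, and those counts were used as deposited.

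Groups were taken from the sample titles. Counts were scaled with TMM factors, and 16647 genes were kept by edgeR's filterByExpr (minimum count 10, minimum total 15). All 16 libraries were fitted with edgeR 4.0.16 (quasi-likelihood, robust) in R 4.3.3, with Benjamini-Hochberg adjustment over all genes kept, and calls were made under 0.05. The common biological coefficient of variation was 5.25%. Every pair of libraries within a group differed by more than sampling noise, with chi-square per degree of freedom of 2.47 to 13.9. CPM used TMM-scaled library sizes, and CPM per kb divided by the union exon length of GENCODE 29. The floors given for MGMT cover counting error only, and the floor was 3 counts. SD and SE values hold the spread between libraries. The 35116 promoter windows came from RefSeq (GRCh38.p14), and all 8 genes matched by symbol. Named genes were the 8 members, up to 4 genes per list and comparison with the smallest p-values, and the 5 genes nearest to DNMT3B. The members and the lists were chosen with earlier results of these data known. The procedure was tested on simulated data. Alternatives were DESeq2 1.42.0, other scalings, no filter, fits on the compared groups alone, a replicate block and leaving out each library. Figures were drawn with matplotlib 3.10.9 in Python 3.11.15.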

Additional observations from a re-analysis of the deposited data

Results flagged for a closer look

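In the groups below, 1 library stood apart from the other 3 by more than the Dixon criterion for 4 values allows. Chance alone picks about 1 in 20 groups. It picked 3 of the 28 groups of the 7 tested members and 15 of the 312 groups of the other named genes.

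Among the members, TET1 was low in combination replicate 4, at 7.902 CPM beside 9.199 to 9.374 in the others. TET1 was high in simvastatin replicate 3, at 16.07 CPM beside 9.955 to 10.23. TET3 was high in DMSO replicate 3, at 52.66 CPM beside 45.22 to 46.03.

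Simvastatin replicate 3 was also the high library for the mismatch repair genes MSH6, at 173.3 CPM beside 156.7 to 158.9, and PMS2, at 47.94 beside 41.49 to 42.17. Irinotecan replicate 4 was the high library for MBD5, at 21.03 CPM, for MCM6, at 132.7, and for CCNE1, at 12.59. Irinotecan replicate 2 was high for MBD6, at 55.26 CPM, and for GADD45B, at 26.92, and low for MSH6, at 135.3. DMSO replicate 2 was high for NSD2, at 309.8 CPM beside 307.5 to 307.9, and low for NEIL3, at 17.39, and APEX1, at 136.7. Combination replicate 1 was low for CDCA7, at 49.95 CPM beside 53.5 to 53.72, and high for RBBP4, at 368. DDX4 was at 1.103 CPM in combination replicate 2, and MAGEA3 at 37.55 CPM in simvastatin replicate 1.

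MBD2 leaned in opposite directions under simvastatin with and without irinotecan, although the groups compared overlapped. The log2 fold change was 0.08 ± 0.05 for the combination against irinotecan and -0.06 ± 0.05 for simvastatin against DMSO. All 4 combination libraries lay above the irinotecan mean, at 49.0 to 53.9 CPM against 48.7, and all 4 simvastatin libraries lay below the DMSO mean, at 49.4 to 52.8 against 53.4. The log2 interaction was 0.1356 with a standard error of 0.06. The gene was chosen with these values in view, so this difference was not tested.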

How the results depend on the processing

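Fold changes of the 7 members were recomputed under every alternative. Of 959 values, 949 moved by less than the spread between replicates and 10 moved by more, of which 8 arose with library sizes alone, a scaling chosen after seeing the data, and 2 were TET2 interactions in the 12 numbered libraries. No DNMT3B value was among the 10. Named pathway genes kept their side of the threshold in 4166 of 4379 values, lost the call in 121 and gained it in 92, and none reversed.

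The calls among the 105 pathway genes were less stable in the smaller comparisons. For simvastatin against DMSO, the 12 calls became 19 with DESeq2, 2 in the 12 numbered libraries without a block, and 7 to 17 when single libraries were left out. For the combination against irinotecan, the 6 calls became 10 with DESeq2, 12 in a fit of those groups alone, 12 with library sizes alone, 2 in the 12 numbered libraries, and 2 to 8 when single libraries were left out. DESeq2 also called all 12 and all 6.

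Replicate numbers in the titles cover 12 libraries. Same-numbered libraries deviated together, with a correlation over 0.1, in 4 of 18 pairs (range -0.0646 to 0.200), and the numbers were not taken as a pairing. All correlations were above 0 except some between the combination and irinotecan. A weak pairing was not tested for, and the calls above make no allowance for it. The class called the longest genes did share a shift, above the group mean in replicate 3 and below it in replicate 1 of every group. The labels do not say what same-numbered libraries have in common. With a replicate block in the 12 numbered libraries, the combination against irinotecan gave 19 calls, far more than those libraries gave without it, as stated above. The interaction gave 1 with the block, against 0 without it. The causes of these shifts were not tested. Small log2 differences, such as those of DNMT1 and DNMT3A, are near the limit of 4 libraries a group, and at about 9 CPM TET1 has standard errors near 0.15.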
